A study of Caenorhabditis elegans with 2 samples.

Results

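Weaker peaks of an eGFP-tagged CEH-30 protein that lay far from protein-coding genes and were found in both replicates are described here. The experiment was a chromatin immunoprecipitation with sequencing in late embryos of Caenorhabditis elegans, a nematode, with 2 biological replicates that form 1 group. The animals were whole embryos of pooled male and female sex from strain OP120 (unc-119(ed3) III; wgIs120), so both replicates carried the unc-119 mutation and the integrated ceh-30 transgene, and signal from the few cells that use ceh-30 cannot be told apart from signal of other cells. Peaks were chosen by 4 values measured in these data. A pooled peak had to be missing from the authors' optimal list, which holds the 545 pooled peaks of highest signal. It had to overlap a relaxed peak of replicate 1 and one of replicate 2 by at least 1 bp. Its summit had to lie inside no protein-coding gene, and outside the promoter window of each such gene, set at 1000 bp before its 5′ end and 500 bp after it. The rule kept 1528 of the 30000 pooled peaks, called members below. "Intergenic" thus means between protein-coding genes, and 170 of the summits (11.1%) lay inside an annotated gene that codes for no protein.

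CEH-30 is a homeodomain transcription factor of the BarH type, whose known role is to keep CEM neurons of males from dying, and homeodomains commonly bind short words with a TAAT core. In the compact genome of C. elegans most known control sequence lies close to the gene it serves, while enhancers farther away are known for a smaller number of genes, many of them developmental regulators. Relaxed peak lists are made to hold background beside true peaks, so that the 2 replicates can be compared rank by rank. The chance that such lists meet is set in part by how much of the genome they cover: the replicate 1 list covered 10.3% of the nuclear bases and the replicate 2 list 5.85%. The pooled list was derived from both replicates, so these shares give no chance level for its overlap with either list.

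The sequences below show words that the rule did not use and that some summits of members held. Each is the ce11 plus strand within 50 bp of a summit, from the RefSeq WBcel235 genome, and capitals mark bases in any of the 13 words of 6 bases that were called higher at summits than in both flanks, as described further on. The first 3 show strong members: one with these words on both sides of its summit, one beside a tRNA gene, and one with none of the words. The other 6 are the strongest members away from the first chromosome that hold the longest run of overlapping called words.
F54F12.1, upstream, III:13061260-13061360: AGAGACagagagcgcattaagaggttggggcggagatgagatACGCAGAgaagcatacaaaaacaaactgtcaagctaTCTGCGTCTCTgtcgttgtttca
T24D5.1, at a tRNA gene, X:12563720-12563820: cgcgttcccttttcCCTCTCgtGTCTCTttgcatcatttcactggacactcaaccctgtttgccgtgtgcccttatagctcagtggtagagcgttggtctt
nhr-61, upstream, II:14822740-14822840: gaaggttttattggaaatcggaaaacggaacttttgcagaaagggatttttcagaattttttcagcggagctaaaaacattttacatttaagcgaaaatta
Y17G7B.17, upstream, II:12102554-12102654: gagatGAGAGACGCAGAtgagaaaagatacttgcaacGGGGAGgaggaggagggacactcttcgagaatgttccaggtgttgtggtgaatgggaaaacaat
rga-9, upstream, II:15263125-15263225: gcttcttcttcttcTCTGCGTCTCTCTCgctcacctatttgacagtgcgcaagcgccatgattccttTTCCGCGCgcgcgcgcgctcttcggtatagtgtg
F52G3.1, upstream, X:16959771-16959871: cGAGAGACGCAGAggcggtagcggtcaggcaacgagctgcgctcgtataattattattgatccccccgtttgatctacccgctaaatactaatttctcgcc
sup-35, downstream, III:11110885-11110985: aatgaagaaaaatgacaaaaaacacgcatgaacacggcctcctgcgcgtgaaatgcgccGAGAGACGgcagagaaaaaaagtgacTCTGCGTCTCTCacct
pan-1, upstream, III:4560691-4560791: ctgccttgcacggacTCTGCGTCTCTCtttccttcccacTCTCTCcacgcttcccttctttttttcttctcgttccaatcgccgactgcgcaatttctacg
grdn-1, upstream, V:18589703-18589803: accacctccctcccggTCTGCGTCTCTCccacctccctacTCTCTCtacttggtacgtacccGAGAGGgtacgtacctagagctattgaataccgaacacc

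The peak by F54F12.1 had a pooled signal of 37.6, with a replicate 1 signal of 15.9 and a replicate 2 signal of 26.2. That by Y17G7B.17 had 32.2, with 15 and 14.4 in the replicates. The window upstream of rga-9 had a pooled signal of 29.2, and 8.46 in replicate 1 against 20.4 in replicate 2. The member by grdn-1, the worm's girdin-like gene, had 24.3, with 11.1 and 13. These 4 members thus differed in how evenly the replicates carried them. They were shown because they hold called words, so the words they share are no result.

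Summits of members held more of a small family of words than the sequence beside them. All 2080 words of 6 bases, each counted together with its reverse complement, were compared between the window within 50 bp of the summit and equal windows centred 300 bp to its left and right, by exact McNemar tests over the 1528 members (the larger of the 2 p-values, Benjamini-Hochberg adjusted over all words). A call against both flanks at an adjusted p of 0.05 or less was made for 13 words that were higher, 0.625% of those tested, and for 6 that were lower, 0.288%. At an unadjusted p under 0.05 these counts were 139 and 81. Each of the higher words held 3 to 6 bases that were G or C, and each of the lower words 0 or 1. Summits also held more G and C than the flanks, as given below, and the part of base composition in these calls was not tested. Members overlap one another in places and are not independent, which is taken up below.

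The strongest call was AGAGAC, which 9.95% of the members held at their summit (152 members, 95% exact interval 8.49% to 11.6%), against 4.97% in the left flank and 3.66% in the right (exact McNemar test, adjusted p = 0.000227). Of 50055 windows spread evenly over all bases that meet the placement rule, called eligible windows here, 3.38% held it. CGTCTC stood at 7.66% of the summits and 2.49% of eligible windows (exact McNemar test, adjusted p = 0.000486). ACGCAG stood at 6.54% and 1.89% (exact McNemar test, adjusted p = 0.000486). CGCAGA stood at 6.87% and 2.17% (exact McNemar test, adjusted p = 0.00214). GACGCA stood at 6.09% and 1.95% (exact McNemar test, adjusted p = 0.00479). GACGCA and ACGCAG were already known to be higher at the summits of the optimal peaks of this experiment, so their call here is no independent sign. Called words that overlap them, such as CGCAGA, are no independent sign either. The commonest called word was GAGAGA, at 13.7% of the summits, against 9.03% and 6.81% in the flanks and 5.37% of eligible windows (exact McNemar test, adjusted p = 0.0108). Like GACGCA, it was one of the fixed words looked up for every class.

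These 6 words and AGACGC (6.28% of the summits against 1.83% of eligible windows) overlap one another and tile a single run of 12 bases, in which GAGAGA is followed directly by CGCAGA. The run was put together after the calls were seen, so it is described with no test. It stood whole, on either strand, at the summits of 13 members (0.851%), at 2 left flanks and 3 right flanks, and in 43 eligible windows (0.0859%). With 1 mismatch allowed it stood at 44 summits (2.88%, 95% exact interval 2.1% to 3.85%), at 11 left and 9 right flanks, and in 0.354% of eligible windows. The share was 2.43% at 2591 weaker promoter peaks found in both replicates and 0.880% at 5567 weaker distal peaks that were not found in both. Among the 100 distal peaks of the optimal list it was 8%. All 44 members lay more than 250 bp from any tRNA, snoRNA, snRNA, miRNA or rRNA gene. Over all members only 4.91% lay within that distance of one, so few of the 44 would lie near one at that share. Whether members with the run lay near such genes less often than other members was not tested. Ordered by pooled signal and cut into 4 equal groups of 382, the members of the lowest group held the run in 7 cases, the next in 6, then 10, and the highest group in 21.

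**Figure D1:**
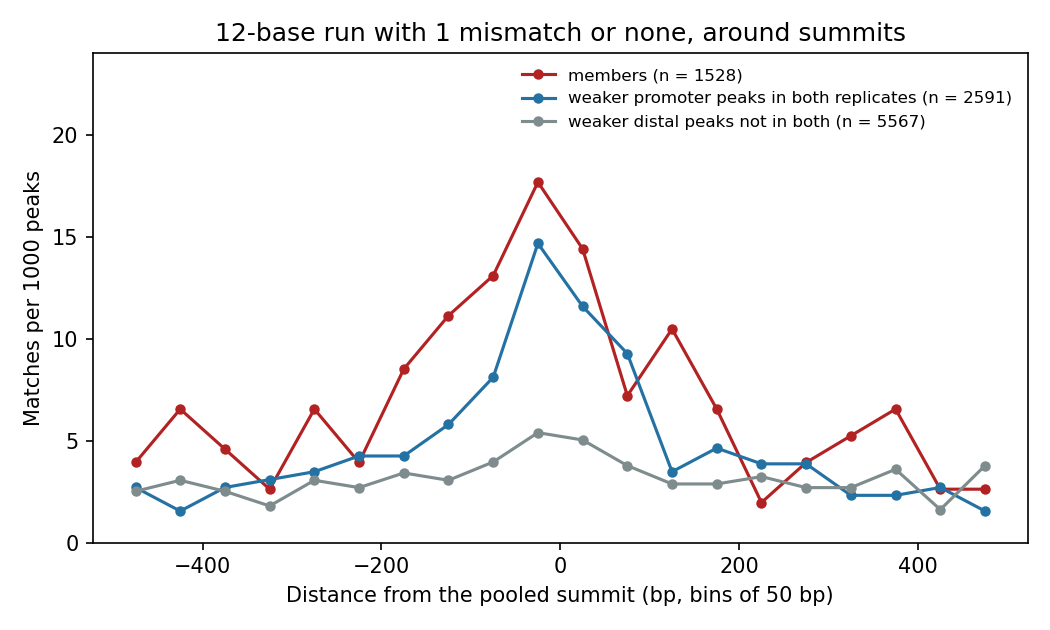
Matches to the 12-base run with at most 1 mismatch (vertical axis, matches per 1000 peaks) by distance from the pooled summit (horizontal axis, bp, bins of 50 bp), for members, weaker promoter peaks found in both replicates and weaker distal peaks not found in both. Members reach 17.7 matches per 1000 peaks in the bin just before the summit and 14.4 in the bin just after it, and the distal peaks not found in both reach 5.39 and 5.03.

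Genes beside these 44 members were of many kinds. They included daf-1, a type I receptor of the TGF-beta family, with a summit 2073 bp upstream of its 5′ end and a pooled signal of 19. They included dlk-1, a MAP kinase kinase kinase known for axon regeneration (12.4), and kal-1, the worm's anosmin-like gene (17.0). They also included ogt-1, the O-GlcNAc transferase (29.1), aakg-1, a gamma subunit of AMP-activated kinase (25.7), and sptf-3, a transcription factor of the Sp family (17.1). The member at aakg-1 had a replicate 1 signal of 6.02 and a replicate 2 signal of 22.9, while that at ogt-1 had 14.6 and 13.9. The other called words were GCCGCC (3.66% of the summits against 1.51% of eligible windows), CCTCTC (7.26% against 2.71%), CTCCCC (5.1% against 1.9%), ACACAC (8.38% against 3.97%), GCGGAA (5.43% against 3.12%) and CCGCGC (3.21% against 1.25%). At least 1 of the 13 words stood in 660 summit windows (43.2%), against 22.9% of eligible windows, and at least 3 in 170 (11.1%), against 2.14%.

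The words called lower were all rich in A and T. TCAAAA stood at 25.2% of the summits, against 32.1% and 32.9% in the flanks (exact McNemar test, adjusted p = 0.0108). AATTAA stood at 10.6%, against 15.5% and 17.0% (exact McNemar test, adjusted p = 0.0108). TAAAGA stood at 3.6%, against 6.81% and 6.74% (exact McNemar test, adjusted p = 0.0139). The remaining 3 were AAATTA at 17.8% of the summits, AATTTA at 15.5% and ATTAAA at 13.3%, against 24.5%, 20.6% and 18.6% of eligible windows. By the same test the weaker promoter peaks gave 164 higher and 59 lower words, of which 11 and 2 were among those of the members. The distal peaks not found in both gave 0 and 0 (43 and 33 at an unadjusted p under 0.05), and the distal optimal peaks gave 9 and 13, of which 7 and 1 were shared. The number of peaks differed between these classes, and the difference between their calls was not tested.

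The number of called words differed between smaller sets of members, and the part of set size in this was not tested. The 764 members of highest pooled signal gave 23 called words, and 12 of the 19 called over all members were among them. Among the 709 members whose replicate summits lay within 100 bp of each other, 1 word was called, CCGCGC. The word GACGCA, for one, exceeded the flanks by 3.44 points over all members and by 3.46 points there (exact McNemar test, adjusted p = 0.698). Why the calls of this and the other words were lost there was not tested. With 1 member kept for each group of overlapping members, all 19 stayed called. With the promoter window widened to 2000 bp upstream, 1065 members remained and 1 of the 19 words was called, CCTCTC, while the difference for GACGCA was 2.49 points. Where a peak of replicate 2 sufficed, without replicate 1, 26 words were higher and 12 lower, and where one of replicate 1 sufficed, without replicate 2, these were 11 and 0. In every alternative tried, each of the 19 words kept its direction.

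Words that homeodomains of this type bind were not more common at these summits. TAATTG stood at 5.63% of the summits, against 8.18% and 8.51% in the flanks and 8.81% of eligible windows (exact McNemar test, adjusted p = 0.231). TAATTA stood at 4.38%, against 5.17% of eligible windows, and TAAACG at 3.01%, against 3.29% (exact McNemar tests, adjusted p = 1 for both). Any of the 3 stood at 12.2% of the summits (95% exact interval 10.6% to 13.9%) and in 16.3% of eligible windows. The share was 16.1% at distal peaks not found in both, a difference of -3.98 points (95% Newcombe interval -5.81 to -2.0), and 13.3% at the weaker promoter peaks. Within bands of pooled signal the gap was smaller above 15: members had 11.4% against 16.7% from 10 to 15, 13.4% against 14.4% from 15 to 20, and 11.5% against 12.9% from 20 to 40. The exact intervals of the 2 classes overlapped in the upper 2 bands, which does not show equal shares there. Among the distal optimal peaks the share was 7%. The TAAT core, which TAATTG and TAATTA contain, stood at 54.3% of the summits and in 66.4% of eligible windows. The share of G and C and the pooled signal moved with these values, and their part in them was not tested. Of the other words looked up for every class, GCGCAC stood at 2.88% of the members' summits and 5.87% of the weaker promoter summits. GTTCGA, a word of tRNA genes, stood at 4.65% of the summits, and TATAAA at 9.23%, against 3.44% and 12.6% of eligible windows (exact McNemar tests, adjusted p = 0.749 and 0.544).

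Members were richer in G and C at the summit than beside it. The mean was 38.4% ± 9.13 (SD, n = 1528 members) within 50 bp of the summit, 34.7% in the left flank and 34.4% in the right, and 34.3% over the eligible windows. The difference between a summit and the mean of its flanks was 3.84 points on average (SD 10.5, so single members varied widely), and 45.8% of the members exceeded both flanks, against 33.0% of the distal peaks not found in both. Without the demand for a replicate 1 peak the difference from the flanks was 3.03 points, and without that for a replicate 2 peak it was 1.48 points. The rise grew with pooled signal, from a mean of 36.4% in the lowest group of 382 through 36.9% and 38% to 42.3% in the highest. Distal optimal peaks had a mean of 48.3% ± 6.92 (SD, n = 100). The distal peaks not found in both had a mean of 34.6% and lower pooled signal than members. Within bands of pooled signal the members had 36.5% against 34.1% from 10 to 15 and 37.1% against 35.8% from 15 to 20. From 20 to 40 they had 41.3% against 39.6%. The part of signal in this difference was not tested.

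**Figure D2:**
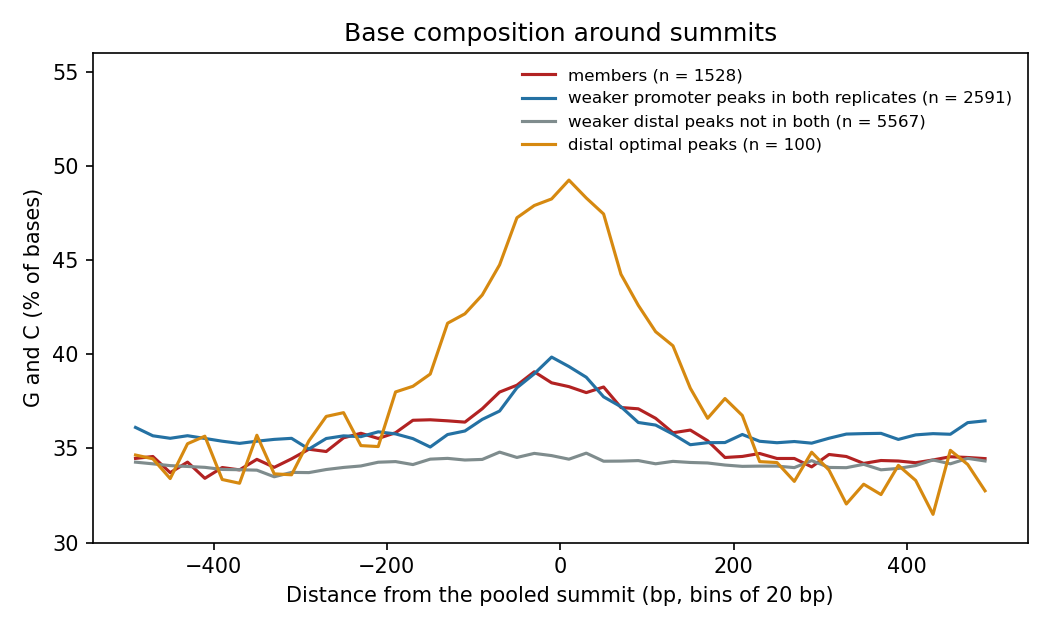
Share of G and C (vertical axis, % of bases) by distance from the pooled summit (horizontal axis, bp, bins of 20 bp) for the 4 classes of peaks. Members rise from about the level of the distal peaks not found in both to a highest bin of 39.1%, and the distal optimal peaks rise higher.

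The values that chose the members are given as a description, with no test. Pooled signal ran from 10.1 to 38.7 with a median of 18. Replicate 1 signal ran from 5.61 to 40.4 with a median of 8.46, and replicate 2 signal from 7.77 to 39.4 with a median of 10.4. Signal is the authors' peak height, and its scale differs between lists. Of the 7095 weaker distal pooled peaks, 4391 (61.9%) had a replicate 1 peak, 3049 (43%) a replicate 2 peak, 1528 (21.5%) both and 1183 neither. Over weaker pooled peaks of all places, 6758 of 29455 were found in both, a similar share. The 3 members of highest signal lay by W05B5.1 (38.7), F40E3.3 (38.5) and F32B5.6 (38.4), just under the 3 weakest distal optimal peaks, which lay by mdl-1 (39.0), B0294.3 (39.2) and R11A5.3 (39.3). The rank correlation of the replicate signals was 0.149 over members and 0.233 over the weaker promoter peaks (Spearman's rank coefficient across peaks, which are not independent replicates). In the 764 members of highest pooled signal it was -0.0801, and in the 709 members with replicate summits within 100 bp it was 0.245.

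**Figure D3:**
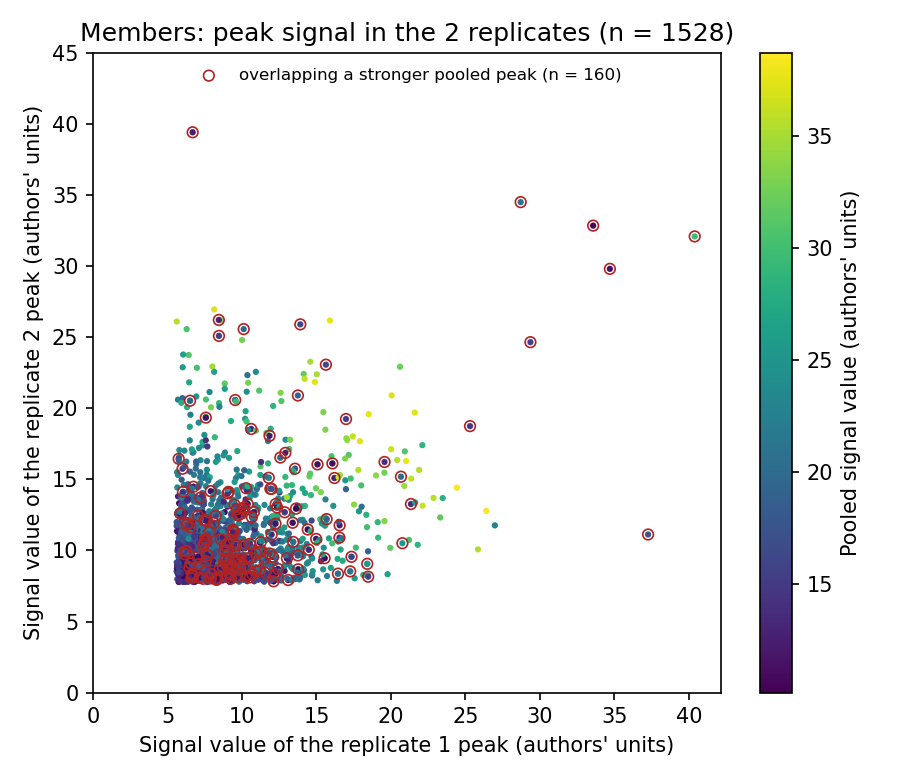
Signal of the strongest overlapping peak in replicate 1 (horizontal axis) and replicate 2 (vertical axis), in the authors' units, for each of the 1528 members, coloured by pooled signal, with rings around the 160 members that overlap a stronger pooled peak. The medians are 8.46 and 10.4, far under the highest values of 40.4 and 39.4, and 5 of the 6 members that rank among the 545 strongest of both replicates are ringed.

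Replicate summits of members often lay apart. The median distance between them was 113 bp. They lay within 50 bp of each other in 424 members (27.7%), within 100 bp in 709 (46.4%), and more than 200 bp apart in 392 (25.7%). The median was 96 bp over the weaker promoter peaks and 45 bp over the distal optimal peaks, of which 76% had summits within 100 bp. Within the members the share under 100 bp rose with pooled signal, from 18.8% in the lowest group of 382 through 43.2% and 56.8% to 66.8% in the highest. A replicate summit is that of the strongest peak a member touches. Among the 160 members that overlapped a stronger pooled peak (median pooled signal 12.4), taken up below, 30% had replicate summits within 100 bp. Among the 1368 others (median 18.6) the share was 48.3%. The part of such neighbours in the rise was not tested.

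**Figure D4:**
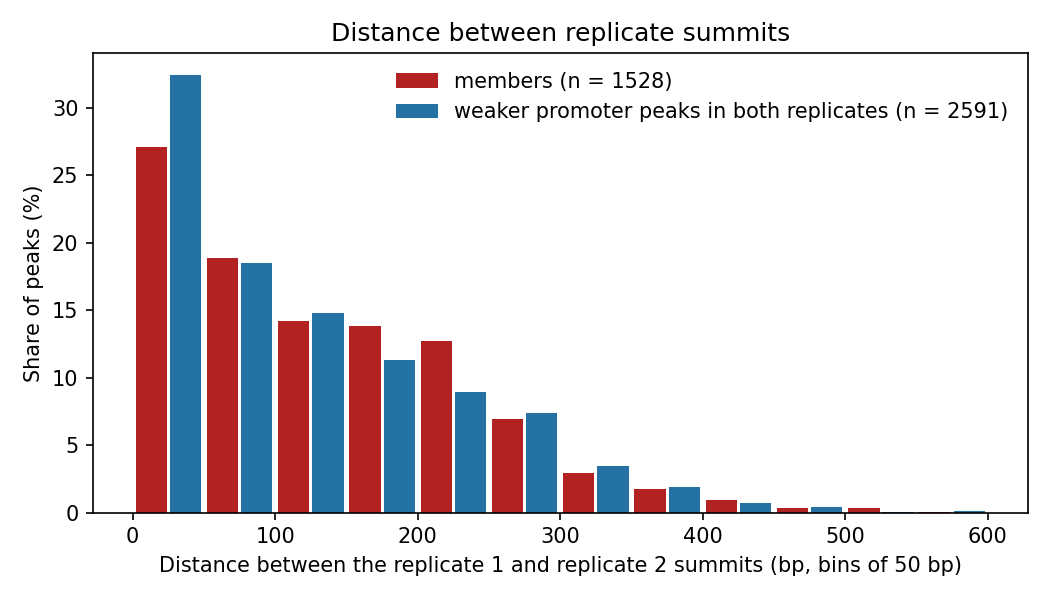
Distance between the replicate 1 and replicate 2 summits (horizontal axis, bp, bins of 50 bp) as a share of peaks (vertical axis, %), for members and for weaker promoter peaks found in both replicates. The members have the smaller share in the first bin, and 12.7% of them, against 8.95% of the promoter peaks, lie between 200 and 250 bp.

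Some members stood beside a stronger pooled peak and shared its replicate peaks. Pooled peaks of 344 bp overlap where their summits are closer than that, and 160 members (10.5%) overlapped a stronger pooled peak whose summit lay a median of 209 bp away (199 to 317 bp). In 9 of these the stronger peak belonged to the optimal list. A member's replicate value is that of the strongest peak it touches, so such a member can carry its neighbour's value. By xol-1, the switch gene of sex determination and dosage compensation, a member of pooled signal 20.7 had replicate signals of 28.7 and 34.5, and an optimal peak of signal 55.8 lay 201 bp away. By mtrr-1 a member of pooled signal 10.4 had 33.6 and 32.9, with an optimal peak of 67.2 at 219 bp. Members by pad-1, C26B9.6 and F13D11.3 were alike, with optimal peaks of 62.2, 54.7 and 67.2 at 200 or 201 bp. Of the 6 members that ranked among the 545 strongest peaks of both replicates, those 5 overlapped an optimal peak, and the member by tps-1, which encodes a trehalose phosphate synthase (pooled signal 32.1, replicates 20.6 and 22.9), overlapped no stronger peak. Over the 1368 members beside no stronger peak, G and C at summits exceeded the flanks by 4.17 points, 19 words were higher and 8 lower, and 5.04% lay near a small RNA gene. All 19 words called over the whole set were called there too.

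The 10 members of highest signal lay by genes of several kinds. The member by lmn-1, which encodes the worm's nuclear lamin, lay 1012 bp upstream at a pooled signal of 37.4 with even replicates (21.6 and 19.7). The member by ztf-6, a zinc finger gene, lay 4502 bp upstream (37.6, with 21.0 and 16.3). The member by nhr-61, a nuclear hormone receptor gene, lay 4247 bp upstream in a gap of 24685 bp between it and cdh-7 (37.4, with 14.9 and 21.9). The member by F40E3.3 had 55.7% of its 32-base words at more than 1 place in the genome. In all, 21 members (1.37%) had most of these words repeated. Members by C15C6.1, sepa-1 and T24D5.1 lay within 18 bp of tRNA genes.

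Members lay closer to genes of small RNAs than eligible bases do. A tRNA, snoRNA, snRNA, miRNA or rRNA gene lay within 250 bp of 75 summits (4.91%, 95% exact interval 3.88% to 6.11%), against 1.05% of eligible bases. The share was 1.46% among distal peaks not found in both, a difference of 3.45 points (95% Newcombe interval 2.42 to 4.69), and 2.74% among weaker promoter peaks. Distal optimal peaks, of the same placement and higher signal, had 31% (95% exact interval 22.1% to 41.0%), so members stood between them and the peaks not found in both. Without the demand for a replicate 1 peak the share was 3.38%, and without that for a replicate 2 peak it was 2.66%. Genes of tRNAs, the adaptors of translation that RNA polymerase III transcribes, made up most of these: 55 members lay by 50 such genes (3.6%, against 0.451% of eligible bases), with a median distance of 26 bp and 14 summits inside the gene. The member at C15C6.t1 had its summit inside it and a pooled signal of 37.8, with 20.7 and 15.2 in the replicates. That at M01E5.t1, between top-1 and sepa-1, lay 15 bp away and had 37.5, with 18.5 and 19.6. That at R01H5.t1 on chromosome X, whose window is shown above, lay 18 bp away and had 37.3, with 17.9 and 17.7. The member at F47E1.t1 lay 39 bp away and had 35.2, with 15 and 22.4. These 4 were named by pooled signal and a peak in both replicates was required, so their replicate values are a description only.

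The share near small RNA genes rose with pooled signal, from 2.88% and 2.36% in the lower groups of 382 to 4.71% and 9.69% in the higher. Peaks not found in both had lower pooled signal, with a median of 12.6. Set side by side within bands of pooled signal, the share was 2.69% of 446 members against 1.13% of 4321 such peaks from 10 to 15, 3.49% of 545 against 2.34% of 1068 from 15 to 20, and 8.19% of 537 against 3.93% of 178 from 20 to 40. The 95% exact intervals of the 2 classes overlapped in each band. Overlap of separate intervals does not show equal shares, and no interval of the difference was computed within bands. The 12-base run showed the same overlap: 1.79% against 0.579%, 2.39% against 1.4%, and 4.28% against 5.06%. Signal thus moved with both measures, and its part in the differences between the classes was not tested further.

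The 12 members near snoRNA genes, which guide modification of other RNAs, included that at T27A3.9, 38 bp away, with a pooled signal of 35.7. Its replicates were uneven, at 5.62 and 26.1. That at ZK20.9, upstream of the corepressor gene din-1, had 35.4, with 21.9 and 15.7. Of the 8 members near miRNA genes, 2 had their summit inside one: cel-mir-53, by hrg-5 on chromosome IV, with a pooled signal of 33.6 (19 and 15.3), and cel-mir-83, a relative of the miR-29 family, with 17.8 (7.44 and 9.5). Members at cel-mir-73 (24.2) and cel-mir-45 (20.8) lay 107 and 234 bp away. The share near miRNA genes was 0.524% (95% exact interval 0.226% to 1.03%), against 0.323% of the distal peaks not found in both, and this difference lay within its interval (-0.119 to 0.720 points). No member lay within 250 bp of an rRNA gene (0 of 1528, an upper 95% exact bound of 0.241%). Genes annotated only as ncRNA, with no small RNA gene near, lay within 250 bp of 149 members (9.75%), against 5.39% of eligible bases and 7.24% of the distal peaks not found in both. Pseudogenes and piRNA genes went the other way, at 5.96% and 3.99% of members against 13.2% and 6.75% of eligible bases.

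**Figure D5:**
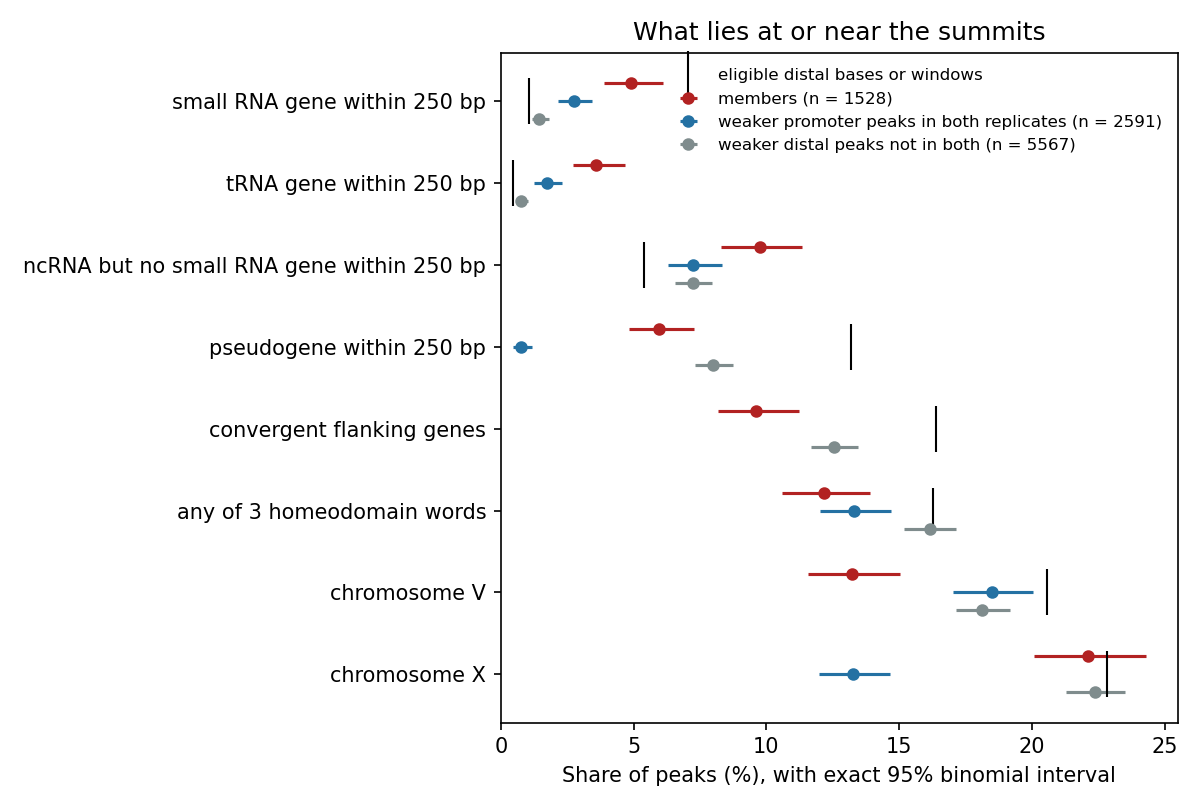
Share of peaks (horizontal axis, %, with exact 95% binomial intervals) that lay near each kind of gene, between convergent genes, at a homeodomain word or on chromosomes V and X, for members, weaker promoter peaks found in both replicates and weaker distal peaks not found in both. Black ticks give eligible distal bases, or windows for the words. Members stand right of the tick for tRNA genes (3.6% against 0.451%) and left of it for pseudogenes, convergent genes and chromosome V.

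Members lay a median of 2642 bp from the nearest protein-coding 5′ end, with the farthest at 36679 bp, and in gaps of median 7422 bp between genes. Eligible bases lay a median of 2765 bp away. The nearest 5′ end pointed away from the summit, so that the summit was upstream of it, in 1147 members (75.1%), against 66.7% of eligible bases and 70.7% of distal peaks not found in both (difference 4.35 points, 95% Newcombe interval 1.82 to 6.77) and 62% of distal optimal peaks (95% exact interval 51.7% to 71.5%). Between convergent genes, where neither neighbour starts, lay 147 members (9.62%), against 16.4% of eligible bases and 12.6% of the peaks not found in both (difference -2.94 points, -4.58 to -1.14). Distal optimal peaks went the other way, with 25% (95% exact interval 16.9% to 34.7%). Within bands of pooled signal members had 10.1% against 13% of the peaks not found in both from 10 to 15, 10.1% against 11.8% from 15 to 20, and 8.75% against 7.30% from 20 to 40. The direction thus turned in the highest band. The exact intervals of the 2 classes overlapped in each band, which does not show equal shares. Between divergent genes lay 35.1%, against 29.9% of eligible bases.

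By chromosome, X held the most members, 338 (22.1%, against 22.8% of eligible bases). The weaker promoter peaks had 13.3% on X, 8.84 points fewer (95% Newcombe interval 6.42 to 11.3), and the members' share on X was close to that of eligible sequence. Chromosome I held 263 members, 17.2% against 11.2% of eligible bases, and chromosome III held 231, 15.1% against 11.1%. Chromosome V held 202, 13.2% against 20.6%. Distal peaks not found in both had 12.5% on I and 18.1% on V, and the differences from members were 4.67 points (2.65 to 6.82) and -4.9 points (-6.82 to -2.86).

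Several genes had a group of members near them. The 1528 members lay by 1209 nearest genes, of which 962 had 1 member, 189 had 2 and 58 had 3 or more, and they fell into 1403 groups of overlapping intervals. They drew on 1405 distinct replicate 1 peaks and 1410 distinct replicate 2 peaks. The genes with most members, picked after their values were seen, were W05B5.1 with 6 and kpc-1 with 5. All 6 by W05B5.1 lay in the gap of 9858 bp that separates it from pmr-1, a Golgi calcium pump gene, at signals of 38.7, 33.2, 29, 21.4, 18.3 and 12.9. The first and last of these shared both replicate peaks (8.45 and 26.2), and the 21.4 member held the 12-base run with at most 1 mismatch. The 5 by kpc-1, a furin-like protease gene known for dendrite branching, lay 1313 to 7694 bp upstream, at 22.9, 17.9, 17.7, 14.5 and 14.0, and those at 17.7 and 14.5 shared both replicate peaks. By ztf-6, 4 members lay 2304 to 11762 bp upstream, at 37.6, 28.4, 25.5 and 17.7. By cpt-1, a carnitine palmitoyltransferase gene, 4 lay at 35.5, 27.5, 25.3 and 19.7, and the middle 2 shared both replicate peaks. By somi-1, a zinc finger gene, 4 lay at 31.1, 21.5, 18.4 and 15.6, of which the first and last shared both replicate peaks.

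Among 12 lists of genes, members were nearest to chemoreceptor genes less often than the other distal peaks were. Of the members, 28 (1.83%) had a chemoreceptor gene as nearest 5′ end, against 5.02% of eligible bases and 3.86% of distal peaks not found in both (difference -2.03 points, 95% Newcombe interval -2.81 to -1.10). Chemoreceptor genes are a large family of sensory neurons, many on chromosome V. The strongest of these members lay by sri-5 (28.1, with 6.31 and 20.1) and srbc-61 (28.1, with 10.1 and 12.9). Neuropeptide genes had 11 members (0.720%, difference -0.753 points, -1.23 to -0.121), among them nlp-8 (26.1) and flp-21 (19). Genes of ion channels and neuronal receptors had 35 (2.29%, difference -1.12 points, -1.94 to -0.137), among them the innexin gene inx-10 (31.5), lgc-26 (30.9) and the potassium channel gene twk-7 (22.3). These 3 intervals were not adjusted for the 12 lists compared, and for the 9 others the interval of the difference included 0. The member by lgc-26 had 71.4% of its 32-base words at more than 1 place in the genome.

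For genes of transcription factors the difference between members and peaks not found in both was not detectable. Homeobox genes had 16 members by 11 genes (1.05% against 1.35%, interval of the difference -0.825 to 0.401 points). Those of highest signal lay by ceh-86, at 26.3 (13 and 9.44) and 22.4 (7.8 and 12.8), and by zag-1, a ZEB-type regulator of neurons, at 22.1 (9.65 and 12.9) and 21.3 (12.5 and 8.51). Nuclear receptor genes had 36 members by 24 genes (2.36% against 2.14%), led by nhr-61 (37.4), nhr-20 (34.1) and nhr-88 (32.2). Other transcription factor genes had 31 by 19 genes (2.03% against 1.74%), led by ztf-6, by sma-9, the Schnurri-like factor of BMP signalling (33.9, with 17.0 and 17.9), and by the bHLH gene hlh-29 (33.3, with 16.9 and 16.5). The member by egl-27, an MTA-like chromatin factor gene, lay 7427 bp upstream at 30.7. Guidance and adhesion genes had 20 members by 12 genes (1.31% against 1.11%). Those by hmr-1, the classical cadherin gene, stood 1694 and 2362 bp upstream at 35.5 (25.8 and 10.1) and 31.4 (8.84 and 21.7), so that each replicate favoured a different one.

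The remaining lists held few members. Collagen genes had 5, led by col-139 (33.2), F-box and lectin genes 20, ribosomal protein genes 2 (rpl-31 at 23.0 and rps-28 at 20.7), histone genes 2 (his-24 at 14.9 and his-67 at 10.5) and major sperm protein genes 1 (msp-49 at 16.4). Members were also looked up by distance from 3 single genes. The nearest member to ceh-30 itself stood at a pooled signal of 12.8, 15.4 kb from where that gene starts. The nearest to egl-1, the BH3-only cell death gene, lay 6.03 kb away with 13.7, closer to the 5′ end of rrsr-1. The nearest to unc-119, the gene mutated in the strain, lay 53.6 kb away with 17.4.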

How the data were processed

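Peak lists of 2 biological replicates were used, on the ce11 assembly. Per the labels, relaxed lists of peaks and background were made for each replicate and for the pooled replicates, and the optimal list by the irreproducible discovery rate procedure. Neither caller, aligner nor threshold is given in the sources used, and the ce10 lists were not used here. The deposited lists give the authors' signal value per peak, a peak height on a scale of its own in each list, used to describe, rank and filter peaks within a list, and a significance score that was not used. Summits came from the deposited offset. No list holds read counts, so depth is unknown, and the exact (Clopper-Pearson) and Newcombe intervals cover the counting of peaks only.

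Genes came from Ensembl release 115 of WBcel235 (19973 protein-coding), and sequence from RefSeq WBcel235, which has the same coordinates. Coordinates are 1-based. Eligible bases, 25.0 Mb or 25.0% of the nuclear genome, meet the placement rule, and were sampled every 10 bp (windows of sequence every 500 bp). Only words of 6 bases were tested, by exact McNemar tests, checked on random sequences with planted words. Those sequences had the same base composition at summits and flanks, so the check did not cover the difference in G and C found here. Words near TAAT, tRNA and TATA motifs were looked up for every class. Named members are the 10 of highest signal, up to 4 per small RNA class and per gene list, and those nearest to ceh-30, egl-1 and unc-119. Named words are the 5 higher and 3 lower of smallest p and 9 looked-up words; the remaining called words were named after the calls were seen. Genes beside the 12-base run, genes with several members and members strong in both replicates were named after their values were seen. Members and lists were chosen with earlier results of these data known. Python 3.11.15, numpy 2.4.6, scipy 1.17.1, pandas 2.3.3 and statsmodels 0.14.6 were used.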

Additional observations from a re-analysis of the deposited data

How the results depend on the processing

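Of the 138 values recomputed for the main results, 95 stayed within the 95% interval of the main value, or within 1.5 times it for a count. Each of the 19 called words kept its direction under each alternative that recomputed them, though 106 of the 285 recomputed tests missed the threshold. The replicate correlation has no value without one of them. The alternatives without replicate 1 or without replicate 2, in which a peak of the other replicate sufficed, gave 3049 and 4391 members. Over these the share near small RNA genes ranged from 2.66% to 3.38%, G and C above the flanks from 1.48 to 3.03 points, homeodomain words from 13.5% to 15.2%, convergent genes from 11.2% to 11.7%, words higher from 11 to 26 and words lower from 0 to 12. With 50% reciprocal overlap G and C exceeded the flanks by 4.45 points and 2 words were lower. A promoter window from 500 bp upstream to the 5′ end gave a median distance of 2073 bp, 7.89% between convergent genes, 41 words higher and 29 lower. A window from 2000 bp upstream gave 3558 bp, 13.3%, 2 and 0. With summits inside no gene of any kind, 3.68% lay near a small RNA gene, 0.589% had repeated sequence, and 5 words were higher and 2 lower. The 764 members of highest signal had 7.20% near small RNA genes, 5.56 points more G and C than the flanks, and a replicate correlation of -0.0801, where all members had 0.149; the cause was not tested. Windows of 25 bp to either side gave homeodomain words at 5.96%, 2 words higher and 1 lower. Windows of 100 bp gave 24.2%, 59 and 39, and flanks at 500 bp gave 34 and 13. Longer windows hold each word more often by construction.

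Chosen after seeing the data were 4 further alternatives. Members with replicate summits within 100 bp had 6.21% near small RNA genes, a correlation of 0.245, 1 word higher and 0 lower. Members away from small RNA genes had 0.688% with repeated sequence and 3 words lower. With 1 member per overlapping group, and with members beside no stronger pooled peak, no main result moved. No paired analysis was possible because both replicates belong to 1 group. Depth is unknown, so the lists cannot show whether a peak missing from 1 replicate was absent or below its cutoff.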
